A study of Mus musculus with 21 samples.

Results

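Hepcidin and the genes that move iron into, through and out of cells were followed across 6 genotypes of mouse stomach, as 9 genes: Hamp, Hamp2, Slc40a1, Slc11a2, Cybrd1, Heph, Tfrc, Fth1 and Ftl1. Each gene was represented by probe sets annotated to it alone, and the one chosen by the highest mean signal over all 21 arrays stood for the gene. That choice used no genotype, but the gene list itself was drawn up with earlier results of these arrays known, so the tests below describe these genes and do not stand as independent evidence for picking them. Probe sets were found for 8 of the 9 genes, 18 in all, out of 18193 genes with such a probe set on the array. The 3 probe sets of Ftl1, the ferritin light chain, are also annotated to its pseudogene Ftl1-ps2, so Ftl1 was not analysed here. No probe set is annotated to both Hamp and Hamp2. In build GRCm38.p6 the hepcidin genes lie close together at chr7:30942368-30944029 (Hamp) and chr7:30922372-30924181 (Hamp2). The others lie at chr1:45908070-45926532 (Slc40a1), chr15:100387898-100424209 (Slc11a2), chr2:71118054-71142926 (Cybrd1), chrX:96455436-96574485 (Heph), chr16:32608896-32632794 (Tfrc) and chr19:9980600-9985111 (Fth1).

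RNA of the glandular stomach was hybridised to Affymetrix whole-genome mouse arrays, 1 array per mouse. All mice were C57BL/6, labelled female and 18 to 65 weeks old, and individual ages are not given in the sources used here. The transgenic groups were K19-C2mE with 3 mice, K19-Wnt1/C2mE with 5, K19-Nog/C2mE with 3, K19-Wnt1 with 5 and K19-Nog with 2, and the wild-type group had 3 mice. Each transgene is driven in the stomach epithelium by the K19 promoter: C2mE is the pair of prostaglandin E2 synthesis enzymes COX-2 and mPGES-1, Wnt1 is a ligand that activates canonical Wnt signalling, and Nog is noggin, which binds and blocks BMP ligands. Values are log2 of the deposited RMA signal, and differences are log2 differences from a limma model, with p adjusted over all 45037 probe sets and a change called at an adjusted p under 0.05.

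Hepcidin is a peptide hormone made mostly by hepatocytes. It binds ferroportin, the iron exporter encoded by Slc40a1, and so keeps iron inside enterocytes and macrophages. Its gene is induced by BMP ligands through SMAD proteins when iron is plentiful and by interleukin 6 through STAT3 in inflammation. Hepcidin has also been found in acid-secreting parietal cells of the stomach. Hamp2 is a duplicate of the gene in mice that is not known to act on ferroportin. Dietary ferric iron is reduced by Cybrd1, enters through Slc11a2 (DMT1), is stored in ferritin made of Fth1 and Ftl1 chains, leaves through Slc40a1 and is oxidised again by Heph (hephaestin). Tfrc, the transferrin receptor, takes up iron from blood and is high in dividing cells and red cell precursors.

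The promoters of the hepcidin genes are shown because BMP and STAT elements can carry the inputs named above. The windows below are the 250 bases before the annotated start on the minus strand of mouse chromosome 7 (RefSeq, build GRCm38.p6), at chr7:30944030-30944279 for Hamp and chr7:30924182-30924431 for Hamp2. The first capitals mark the core of a BMP response element, GGCGCC in Hamp, and the aligned bases of Hamp2, and the second capitals mark a STAT element, TTCNNNGAA.
Hamp: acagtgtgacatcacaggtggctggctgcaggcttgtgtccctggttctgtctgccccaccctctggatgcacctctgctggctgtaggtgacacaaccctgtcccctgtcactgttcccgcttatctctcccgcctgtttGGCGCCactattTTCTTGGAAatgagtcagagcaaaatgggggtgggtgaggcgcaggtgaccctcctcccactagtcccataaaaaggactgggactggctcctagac
Hamp2: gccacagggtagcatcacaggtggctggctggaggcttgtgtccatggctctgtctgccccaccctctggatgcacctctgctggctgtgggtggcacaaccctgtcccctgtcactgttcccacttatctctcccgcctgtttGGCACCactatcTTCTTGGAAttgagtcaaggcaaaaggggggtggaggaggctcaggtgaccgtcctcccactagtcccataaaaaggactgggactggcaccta
The windows aligned over 247 bases, of which 227 (91.9%) were identical. Both hold the same STAT element, TTCTTGGAA, which starts at -97 in Hamp and -94 in Hamp2. Hamp holds GGCGCC, starting at -109, whereas the 6 aligned bases of Hamp2, starting at -106, differ by G4A, counted from 1 at the 5′ end of the element. Searched on both strands, GGCGCC is in 9.59% and TTCNNNGAA in 7.02% of the 32851 promoter windows of this length, and a match is a description of letters, not of a bound site. Of the 6 members with a window, 3 (Hamp, Cybrd1 and Tfrc) hold GGCGCC and 2 (Hamp and Hamp2) hold TTCNNNGAA in at least 1 window. Counted by gene in the same way, these are in 10.8% and 8.13% of all 27025 genes with a window.

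Before the results, 3 facts about the arrays bear on every value. All mice are labelled female, but 9 arrays had bright Y-linked genes and dim Xist: in K19-C2mE 2 of 3 arrays, in K19-Wnt1/C2mE 1 of 5, in K19-Nog/C2mE 0 of 3, in K19-Wnt1 4 of 5, in K19-Nog 0 of 2 and in wild-type 2 of 3. Of 6 glandular stomach genes, Gkn1, Gkn2 and Tff1 were bright in every array (log2 signal of 14.6 or more), while Muc5ac, Atp4a and Atp4b ranged down to 7.40, 6.26 and 7.08, against means of 13.7, 14.5 and 14.7 in wild-type arrays. Of these 6 genes, 0 fell in K19-C2mE, 4 in K19-Wnt1/C2mE and 2 in K19-Nog/C2mE against wild-type, where 12.6%, 21.7% and 16.1% of all genes fell. Parietal cell genes were far dimmer in C2mE stomachs. The mean log2 signal of 10 parietal cell genes was 8.75 to 10.7 in K19-C2mE, 7.37 to 10.002 in K19-Wnt1/C2mE and 6.70 to 9.18 in K19-Nog/C2mE, against 12.3 to 12.5 in K19-Wnt1, 12.2 to 12.4 in K19-Nog and 12.4 to 12.5 in wild-type arrays. Genes of squamous forestomach epithelium moved too, with a mean log2 signal of 9.64 to 11.9 in K19-C2mE, 6.91 to 10.3 in K19-Wnt1/C2mE and 6.47 to 6.78 in K19-Nog/C2mE, against 5.97 to 8.11 in wild-type arrays. In bulk tissue, fewer cells of a type and less RNA per cell cannot be told apart.

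Hamp2 was the member with the largest difference from wild-type in each genotype with C2mE. Its log2 signal was 9.23, 6.50 and 8.23 in K19-C2mE stomachs, 6.52, 6.52, 8.09, 6.34 and 5.71 in K19-Wnt1/C2mE stomachs and 6.62, 7.41 and 6.16 in K19-Nog/C2mE stomachs, against 12.17, 12.28 and 12.08 in wild-type stomachs. It was 12.01, 12.23, 12.15, 12.28 and 12.13 in K19-Wnt1 stomachs and 12.14 and 11.88 in K19-Nog stomachs. All 11 arrays with C2mE lay below all 10 arrays without it, and the spread was wider with C2mE. Relative to wild-type, Hamp2 fell by 4.19 in K19-C2mE (SE 0.53, adjusted p = 9.55e-06), a level 18.2-fold lower. It fell by 5.54 in K19-Wnt1/C2mE (SE 0.47, adjusted p = 2.77e-08, 46.6-fold lower) and by 5.45 in K19-Nog/C2mE (SE 0.53, adjusted p = 2.88e-07, 43.7-fold lower). The differences in K19-Wnt1 (-0.02, 95% confidence interval -0.999 to 0.97) and K19-Nog (-0.17, interval -1.40 to 1.06) did not pass the test. All these SEs and intervals rest on 1 estimate of the spread shared by the 6 genotypes. The SD of Hamp2 was 1.38 in K19-C2mE, 0.88 in K19-Wnt1/C2mE and 0.63 in K19-Nog/C2mE. It was 0.10 in wild-type, 0.10 in K19-Wnt1 and 0.18 in K19-Nog.

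Hamp, the hepcidin gene itself, was also lower with C2mE, by less. Its log2 signal was 6.78, 5.72 and 6.18 in K19-C2mE, 5.81, 6.01, 7.24, 5.75 and 5.98 in K19-Wnt1/C2mE stomachs and 6.08, 6.15 and 5.88 in K19-Nog/C2mE stomachs, against 7.91, 7.83 and 7.56 in wild-type stomachs. The K19-Wnt1 stomachs gave 7.66, 7.71, 7.75, 8.15 and 7.76 and the K19-Nog stomachs 7.67 and 7.75. Every array with C2mE was again below every array without it. Hamp fell by 1.54 in K19-C2mE (SE 0.29, adjusted p = 7.17e-04), by 1.61 in K19-Wnt1/C2mE (SE 0.26, adjusted p = 7.76e-05) and by 1.73 in K19-Nog/C2mE (SE 0.29, adjusted p = 1.71e-04), all against wild-type.

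Those values rest on probe sets of the _x_at type, which Affymetrix marks as able to bind related transcripts, and Hamp and Hamp2 are close relatives. Whether each measures its own gene alone was not tested. The signals of the 2 probe sets were correlated at r = 0.966 over the 21 arrays and at 0.839 after genotype means were removed, as a description over arrays that share groups. Each gene has a second, dimmer probe set of the plain _at type, and these gave smaller differences. For Hamp2, 1456289_at lay at percentile 39.95 of all probe sets by mean signal and fell by 0.54 in K19-Wnt1/C2mE (adjusted p = 0.00474) and by 0.51 in K19-Nog/C2mE (adjusted p = 0.018), with -0.37 in K19-C2mE (adjusted p = 0.0988). For Hamp, 1419196_at lay at percentile 31.3 and gave -0.36, -0.54 and -0.69 in K19-C2mE, in K19-Wnt1/C2mE and in K19-Nog/C2mE, of which none passed (adjusted p = 0.374, 0.0814 and 0.0551). Against K19-Wnt1, the same probe set fell by 0.92 in K19-Wnt1/C2mE (adjusted p = 0.0013). When the mean of the probe sets stood for the gene, Hamp2 gave -2.28, -3.04 and -2.98 in the same order. Hamp gave -0.95, -1.07 and -1.21, and all 6 values passed. That mean includes the _x_at probe set of the gene, so it cannot show whether the _x_at probe set is specific.

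**Figure D1:**
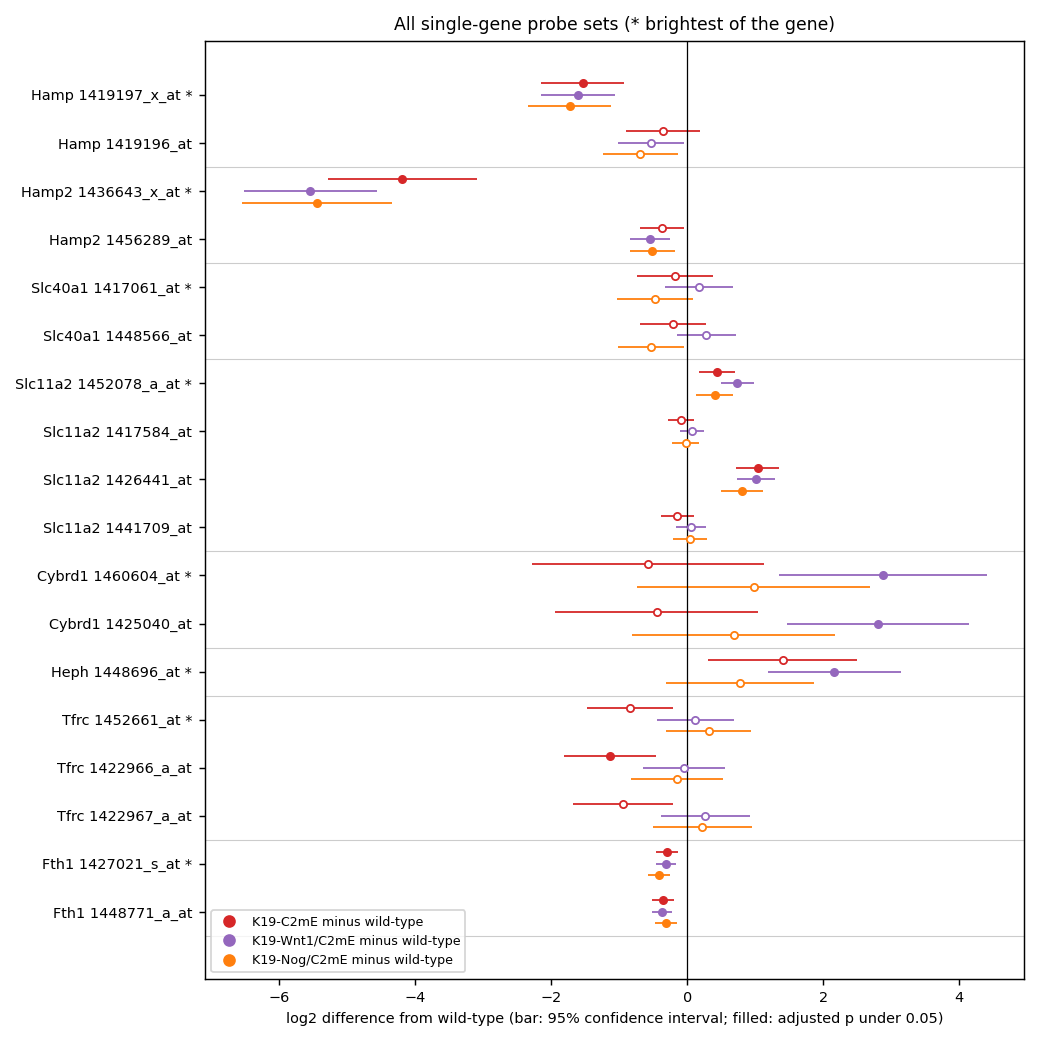
Log2 difference from wild-type (x axis) of each of the 18 probe sets (rows, grouped by gene, with an asterisk at the brightest) in 3 K19-C2mE stomachs, 5 K19-Wnt1/C2mE stomachs and 3 K19-Nog/C2mE stomachs, against 3 wild-type stomachs; bars are 95% confidence intervals and filled points have an adjusted p under 0.05. The brightest Hamp2 probe set lies between -5.54 and -4.19 while its dim partner lies between -0.54 and -0.37, and the 4 Slc11a2 probe sets split into 2 that passed and 2 that did not.

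Parietal cell genes and chief cell genes moved with both hepcidin genes, as did the hepatocyte genes given below. Of 10 parietal cell genes measured, 6 fell in K19-C2mE, 9 in K19-Wnt1/C2mE and 9 in K19-Nog/C2mE against wild-type, and 0 rose in any of them. Their mean signal was correlated with Hamp2 at r = 0.979 over the 21 arrays and at 0.902 after genotype means were removed, and with Hamp at 0.945 and 0.803. The K19-Wnt1/C2mE array with the highest Hamp2 (8.09) and Hamp (7.24) of its group, replicate 3, also had the highest parietal mean, 10.002. The gene most like Hamp2 over the 21 arrays was Slc26a7 (r = 0.993, 0.930 within genotypes), a chloride and bicarbonate transporter that is itself on the parietal cell list. Next were Adhfe1, Gpm6a, Cobll1 and Ckb (r = 0.991 to 0.993, 0.816 to 0.922 within genotypes). Those most like Hamp were Cckar, Nrn1, Gabarapl1, Pnliprp1 and Hamp2 (r = 0.966 to 0.969, 0.771 to 0.839 within genotypes). The log2 of the summed level of the 10 parietal cell genes was 14.5 to 15.6 in K19-C2mE, 14.3 to 15.2 in K19-Wnt1/C2mE and 13.9 to 14.9 in K19-Nog/C2mE, against 16.7 to 16.8 in wild-type stomachs. Of 5 chief cell genes, 1 fell in K19-C2mE, 4 in K19-Wnt1/C2mE and 4 in K19-Nog/C2mE, and 1 rose in each. Beside the parietal and chief cell counts, 12.6%, 21.7% and 16.1% of all genes fell and 14.3%, 20.5% and 15.6% rose. The mean of the chief cell genes was correlated with Hamp2 at r = 0.846 (0.855 within genotypes) and with Hamp at 0.842 (0.790 within genotypes), and the mean of the 6 glandular stomach genes with Hamp2 at 0.899 (0.823) and with Hamp at 0.867 (0.773). The log2 of the summed level of the chief cell genes was 12.6 to 15.2 in K19-C2mE, 12.3 to 15.5 in K19-Wnt1/C2mE and 10.03 to 13.5 in K19-Nog/C2mE, against 16.3 in each wild-type stomach. The lists overlap, with Cblif on the parietal and chief cell lists and Atp4a and Atp4b on the parietal and glandular lists. The part of these cell types in the hepcidin values was not tested.

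**Figure D2:**
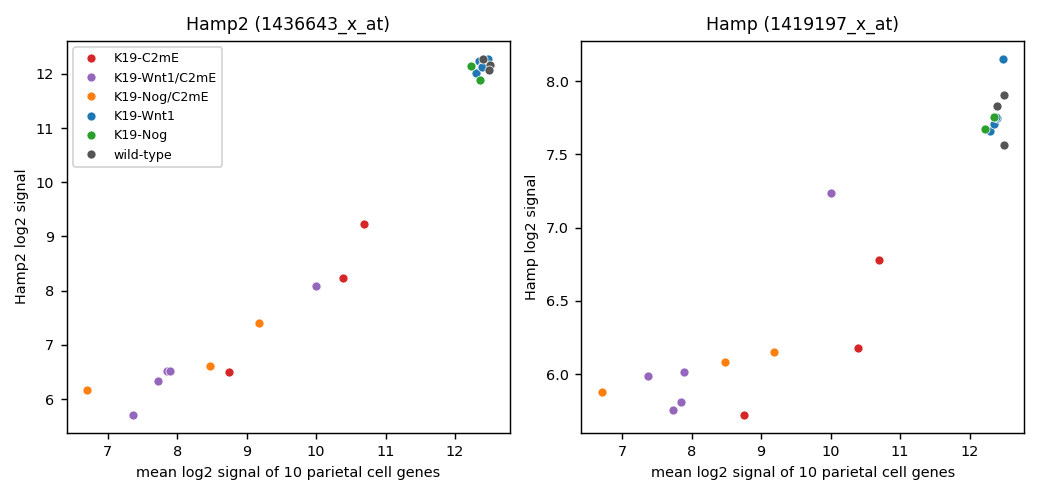
Log2 signal of Hamp2 (left) and Hamp (right) on the y axis against the mean log2 signal of 10 parietal cell genes on the x axis, 1 point per mouse, coloured by genotype (21 mice). The 11 mice with C2mE spread along both axes below the tight cluster of the 10 mice without it.

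Hepatocytes are the main source of hepcidin, so liver genes were read as a check of the tissue. Of 9 hepatocyte genes measured, 4, 5 and 5 fell in K19-C2mE, in K19-Wnt1/C2mE and in K19-Nog/C2mE against wild-type, where 12.6%, 21.7% and 16.1% of all genes fell. The log2 of the summed level of the 9 hepatocyte genes was 11.8 to 13.0, 10.9 to 12.2 and 11.1 to 12.1, against 14.5 to 14.7 in wild-type stomachs. Apoa1 and Ttr were bright in wild-type stomachs (mean log2 signal 14.0 and 12.9). Alb, which encodes albumin and is the defining gene of the list, averaged 6.62, and Fgb, a fibrinogen chain, averaged 4.19 in wild-type stomachs. The part of the hepatocyte genes in the Hamp and Hamp2 values was not tested.

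Slc11a2, the ferrous iron importer DMT1, rose in each genotype with C2mE on its brightest probe set. It had log2 signals of 7.83, 7.82 and 7.84 in K19-C2mE, 8.33, 8.11, 7.86, 8.39 and 7.95 in K19-Wnt1/C2mE stomachs and 7.64, 7.69 and 8.06 in K19-Nog/C2mE stomachs, against 7.50, 7.19 and 7.49 in wild-type stomachs. The groups with C2mE did not overlap wild-type. Slc11a2 rose by 0.44 in K19-C2mE (SE 0.13, adjusted p = 0.0199). It rose by 0.74 in K19-Wnt1/C2mE (SE 0.12, adjusted p = 5.65e-05) and by 0.40 in K19-Nog/C2mE stomachs (SE 0.13, adjusted p = 0.0249). Its other probe sets disagreed. Probe set 1426441_at rose by 1.03, 1.01 and 0.81 (adjusted p = 4.98e-05, 8.61e-06 and 4.47e-04), whereas 1417584_at, almost as bright as the chosen one (mean log2 signal 7.65 and 7.67), gave -0.09, 0.07 and -0.03, and the dim 1441709_at gave -0.15, 0.06 and 0.04, with no call. Without wild-type replicate 2 the calls in K19-C2mE and K19-Nog/C2mE were lost, as was that in K19-C2mE without its replicate 2 or 3 (adjusted p up to 0.109) and that in K19-Nog/C2mE without its replicate 3 (adjusted p up to 0.154). The genes most like Slc11a2 were Cebpb, Ikbkb, Csnk1e, Samd5 and Plscr1 (r = 0.935 to 0.949, 0.594 to 0.746 within genotypes). Slc11a2 makes several transcript forms, and which forms each probe set measures is not given in the sources used here.

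Cybrd1, the ferric reductase of the duodenal surface, stood out in K19-Wnt1/C2mE. Its log2 signal was 11.51, 11.05, 8.98, 11.69 and 11.96 there, 7.06, 9.56 and 6.12 in K19-C2mE and 7.97, 9.60 and 9.83 in K19-Nog/C2mE stomachs, against 7.43, 9.70 and 7.34 in wild-type stomachs. Apart from replicate 3, at 8.98, every K19-Wnt1/C2mE array was above every other array of the series. Cybrd1 rose by 2.88 against wild-type (SE 0.73, adjusted p = 0.00442), a level 7.36-fold higher, and by 3.46 against K19-C2mE (SE 0.73, adjusted p = 0.00812). The second probe set, 1425040_at, gave 2.81 (adjusted p = 0.00191) and 3.26 (adjusted p = 0.00489). The difference from K19-C2mE lost its call without K19-C2mE replicate 1 (3.20, adjusted p = 0.0538) or 3 (2.73, adjusted p = 0.0795) and with the median of the squamous genes as a covariate (2.96, adjusted p = 0.284). Cybrd1 gave -0.58 (interval -2.29 to 1.13) in K19-C2mE and 0.98 (interval -0.73 to 2.69) in K19-Nog/C2mE against wild-type, neither past the test, and the wide spread within K19-C2mE and wild-type limits both. Levels in K19-Wnt1 (8.26 to 9.77) and K19-Nog (9.04 and 9.08) lay between the wild-type extremes or just above them. The gene most like Cybrd1 over the 21 arrays was Ncoa4 (r = 0.835, 0.866 within genotypes), followed by Tmtc2, Cdc42bpa, AI837181 and Dock6 (0.507 to 0.711 within genotypes).

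Heph, the ferroxidase that works beside ferroportin, was dim, at percentile 22.6 of all probe sets by mean signal. Its log2 signal was 4.41, 5.50 and 4.90 in K19-C2mE, 4.80, 6.41, 4.41, 7.06 and 5.80 in K19-Wnt1/C2mE stomachs and 3.53, 3.92 and 5.47 in K19-Nog/C2mE stomachs, against 3.43, 3.66 and 3.51 in wild-type stomachs. K19-C2mE and K19-Wnt1/C2mE did not overlap wild-type, and K19-Nog/C2mE did. Heph rose by 2.16 in K19-Wnt1/C2mE (SE 0.47, adjusted p = 0.00123), and the differences of 1.40 in K19-C2mE (SE 0.52, adjusted p = 0.0625) and of 0.78 in K19-Nog/C2mE stomachs (SE 0.52, adjusted p = 0.288) did not pass. The K19-C2mE difference passed without replicate 3 or 4 of K19-Wnt1/C2mE or replicate 3 of K19-Nog/C2mE (adjusted p down to 0.0308). None of these arrays is in that comparison, but all genotypes share 1 estimate of the spread. Heph has only the 1 probe set. Those most like Heph were Fgfr2 (r = 0.954), Cyp27a1, A2m, Slc39a8 and Lzts3 (all 5 at 0.769 to 0.882 within genotypes).

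Ferroportin, the target of hepcidin, did not pass the test in any comparison on its brightest probe set. Slc40a1 log2 signals were 7.20, 7.58 and 7.80 in K19-C2mE, 7.47, 8.11, 7.33, 8.21 and 8.26 in K19-Wnt1/C2mE stomachs and 7.53, 6.76 and 7.43 in K19-Nog/C2mE stomachs, against 7.58, 7.74 and 7.82 in wild-type stomachs. The K19-Nog/C2mE arrays lay below all wild-type arrays and below both K19-Nog arrays (7.56 and 7.93), and the other groups with C2mE overlapped wild-type. The differences from wild-type were -0.18 (interval -0.74 to 0.37), 0.17 (interval -0.33 to 0.67) and -0.47 (interval -1.03 to 0.09). The second probe set, 1448566_at, was higher in K19-Wnt1/C2mE stomachs than in K19-Nog/C2mE stomachs by 0.81 (adjusted p = 0.0122), where the brightest gave 0.64 (adjusted p = 0.0839). The genes most like Slc40a1 were Specc1l, Calcoco1, Osbpl8, Homez and Zfp362 (r = 0.745 to 0.774).

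Tfrc was lower in K19-C2mE than in the other genotypes with C2mE. Its log2 signal was 10.58, 10.76 and 10.32 in K19-C2mE stomachs, 12.00, 11.61, 10.46, 12.07 and 11.45 in K19-Wnt1/C2mE stomachs and 11.70, 11.59 and 11.85 in K19-Nog/C2mE stomachs, against 11.78, 11.43 and 10.98 in wild-type stomachs. The K19-C2mE arrays lay below every wild-type and K19-Nog/C2mE array but not below replicate 3 of K19-Wnt1/C2mE or replicate 6 of K19-Wnt1 (10.47). Against wild-type, Tfrc gave -0.84 in K19-C2mE (SE 0.30, adjusted p = 0.0516), which did not pass, and the other probe sets gave -1.14 (adjusted p = 0.0149) and -0.95 (adjusted p = 0.0597). Against K19-C2mE, Tfrc was higher by 0.96 in K19-Wnt1/C2mE (SE 0.27, adjusted p = 0.0398) and by 1.16 in K19-Nog/C2mE (SE 0.30, adjusted p = 0.0293). Of 12 squamous genes, 12 rose in K19-C2mE, 5 in K19-Wnt1/C2mE and 1 in K19-Nog/C2mE against wild-type, where 14.3%, 20.5% and 15.6% of all genes rose. The log2 of the summed level of the squamous genes was 13.8 to 16.1, 12.0 to 14.5 and 11.8 to 12.0, against 10.6 to 12.8 in wild-type stomachs. With their median as a covariate, these differences were 0.58 (adjusted p = 0.639) and 0.51 (adjusted p = 0.908). Leaving out the 9 arrays with high Y-linked genes, which leaves 1 K19-C2mE array, gave 0.95 (adjusted p = 0.564) and 1.13 (adjusted p = 0.581) and, once the Y-linked level entered the model, they were 1.03 (adjusted p = 0.0566) and 1.24 (adjusted p = 0.0559). The first lost its call without any of 9 single arrays, among them each K19-C2mE array (adjusted p up to 0.182), and the second without K19-C2mE replicate 1 or 3 or any K19-Nog/C2mE array (adjusted p up to 0.133). Against wild-type, K19-C2mE was called without any of 5 single arrays, among them K19-Wnt1/C2mE replicate 3 (adjusted p = 0.00661). Of 6 red cell genes measured, 1 rose in K19-Wnt1/C2mE and 0 in K19-Nog/C2mE against wild-type, where 20.5% and 15.6% of all genes rose. The log2 of the summed level of the red cell genes was 7.66 to 7.75 in K19-C2mE, 8.22 to 10.2 in K19-Wnt1/C2mE and 7.70 to 8.06 in K19-Nog/C2mE, against 7.88 to 8.002 in wild-type stomachs. The part of the red cell genes in the Tfrc values was not tested. The genes most like Tfrc were Ankrd50, Pcdhb10, Cbwd1, C4bp and Ttc32 (r = 0.662 to 0.688, 0.415 to 0.746 within genotypes).

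Fth1, the ferritin chain that oxidises iron for storage, was bright and changed little. Its log2 signal was 13.93, 14.14 and 14.16 in K19-C2mE, 14.01, 14.17, 14.00, 14.04 and 14.05 in K19-Wnt1/C2mE stomachs and 14.03, 13.86 and 13.97 in K19-Nog/C2mE stomachs, against 14.39, 14.39 and 14.33 in wild-type stomachs. No array with C2mE reached the lowest wild-type array. The K19-Nog arrays (14.22 and 14.27) did not reach it either, and of the K19-Wnt1 arrays (14.21 to 14.38) only replicate 2 did. Every array with C2mE was below all of these. Fth1 fell by 0.29 in K19-C2mE (SE 0.08, adjusted p = 0.00972), fell by 0.32 in K19-Wnt1/C2mE (SE 0.07, adjusted p = 0.00136) and fell by 0.42 in K19-Nog/C2mE (SE 0.08, adjusted p = 4.02e-04), and the second probe set fell by 0.36, 0.38 and 0.31, each past the test. Both probe sets are among the brightest on the array, at percentiles 99.95 and 99.7. Without K19-C2mE replicate 1 the call in K19-C2mE was lost (adjusted p = 0.0619). The genes most like Fth1 over the 21 arrays were Etfdh, Adh5, Acadm, Rbp7 and Ttc21b (r = 0.911 to 0.925, 0.465 to 0.737 within genotypes).

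**Figure D3:**
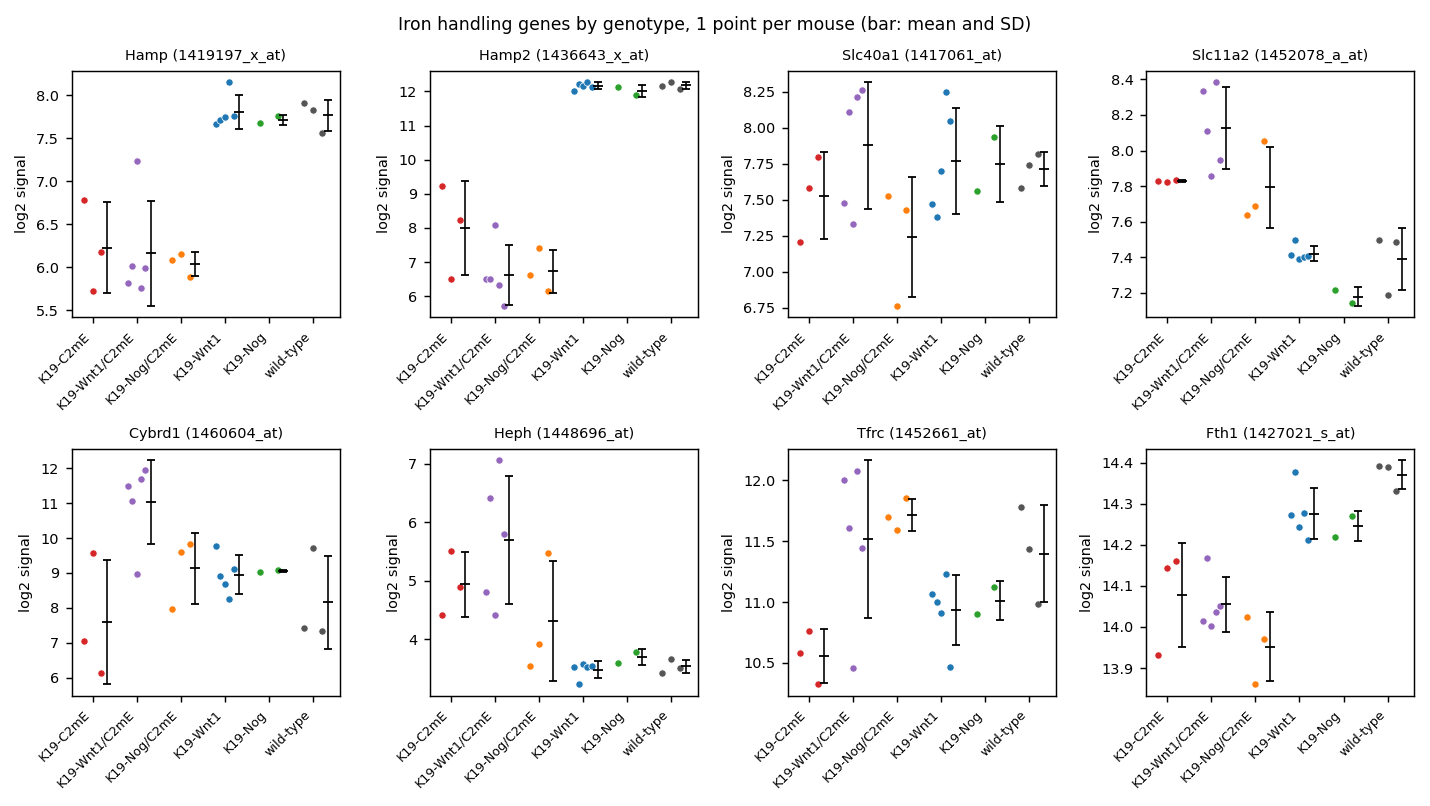
Log2 signal (y axis) of the brightest probe set of 8 iron genes in 6 genotypes (x axis), 1 point per mouse with the group mean and SD beside the points (n = 3, 5, 3, 5, 2 and 3). Hamp2 lies between 5.71 and 9.23 in the 3 genotypes with C2mE and between 11.88 and 12.28 in the others, while the Slc40a1 points lie between 6.76 and 8.26 over all genotypes.

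Counted together, 1 member was higher (Slc11a2) and 3 were lower (Hamp, Hamp2 and Fth1) in K19-C2mE against wild-type, where 14.3% of all 18193 genes were called higher and 12.6% lower. In K19-Wnt1/C2mE against wild-type, 3 were higher (Slc11a2, Cybrd1 and Heph) and the same 3 lower, against 20.5% and 21.7% of all genes. In K19-Nog/C2mE against wild-type, 1 was higher (Slc11a2) and 3 lower, against 15.6% and 16.1%. The median difference of the 8 members was -0.43, 0.14 and -0.05 in these comparisons, beside -0.02, -0.04 and -0.02 over all genes. The 3 comparisons share the wild-type arrays, so their overlap is not independent. In K19-Wnt1 and K19-Nog against wild-type, limma called 0 members, with 0.0110% and 3.84% of all genes called, and 0 members had an unadjusted p under 0.05 in either. The methods' t-test gave 0 and 1 members at an unadjusted p under 0.05.

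The same members were called when C2mE was added to another transgene. Against K19-Wnt1, K19-Wnt1/C2mE stomachs were higher for Slc11a2, Cybrd1 and Heph and lower for Hamp, Hamp2 and Fth1, where 22.3% of all genes were called higher and 21.2% lower. Hamp2 differed by -5.53 (SE 0.41, adjusted p = 2.88e-09) and Hamp by -1.65 (SE 0.23, adjusted p = 9.05e-06). Against K19-Nog, K19-Nog/C2mE stomachs were higher for Slc11a2 and lower for Hamp, Hamp2 and Fth1, where 13.0% of all genes were called higher and 13.2% lower. Hamp2 differed by -5.28 (SE 0.59, adjusted p = 2.15e-06) and Hamp by -1.68 (SE 0.33, adjusted p = 8.38e-04). Slc11a2 rose by 0.70 (adjusted p = 1.43e-05) and 0.61 (adjusted p = 0.00415) in the 2 comparisons. Fth1 fell by 0.29 against K19-Nog (adjusted p = 0.0189), a call lost without either K19-Nog array or K19-Nog/C2mE replicate 2 (adjusted p up to 0.134). Both comparisons use single-transgene arrays that do not enter those against wild-type, but they share their arrays with C2mE.

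**Figure D4:**
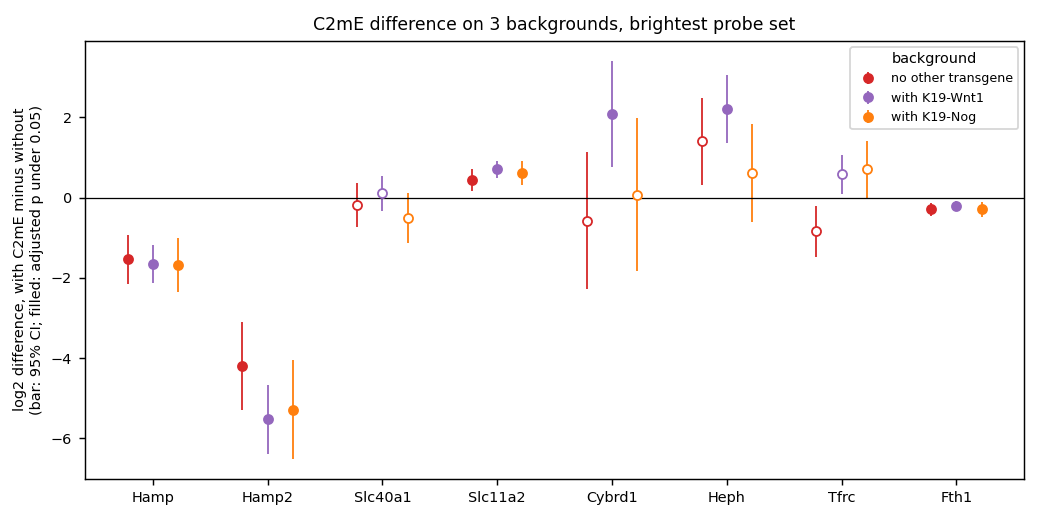
Log2 difference of the brightest probe set between stomachs with and without C2mE (y axis) for 8 iron genes (x axis), on 3 backgrounds: no other transgene (3 against 3 mice), K19-Wnt1 (5 against 5) and K19-Nog (3 against 2). Bars are 95% confidence intervals and filled points have an adjusted p under 0.05; Hamp and Hamp2 are below 0 on every background, and Tfrc is -0.84 without another transgene, 0.58 with K19-Wnt1 and 0.70 with K19-Nog.

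The genotypes with C2mE were also compared with each other. K19-Wnt1/C2mE exceeded K19-C2mE for 2 members, Cybrd1 and Tfrc, where 7.05% of all genes were called in either direction. K19-Nog/C2mE exceeded K19-C2mE for 1 member, Tfrc, with 3.30% of all genes called. Hamp2 was lower than in K19-C2mE by 1.35 in K19-Wnt1/C2mE (SE 0.47, adjusted p = 0.105) and by 1.26 in K19-Nog/C2mE (SE 0.53, adjusted p = 0.212), neither past the test. Both Hamp2 differences passed without K19-C2mE replicate 2, and the first also without K19-Wnt1/C2mE replicate 3 (adjusted p down to 0.00575 and 0.0178). Setting K19-Wnt1/C2mE stomachs against K19-Nog/C2mE stomachs, limma called 0 members, with 13.2% of all genes called, but the second probe sets of Cybrd1 (2.13, adjusted p = 0.031) and Slc40a1 (0.81, adjusted p = 0.0122) passed. On the brightest probe sets, 4 members had an unadjusted p under 0.05, and without replicate 3 of K19-Wnt1/C2mE these 4 were called: Cybrd1 (2.42, adjusted p = 0.0212), Heph (1.71, adjusted p = 0.0126), Slc11a2 (0.40, adjusted p = 0.023) and Slc40a1 (0.78, adjusted p = 0.0326).

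Whether the C2mE difference itself depended on the other transgene was tested as an interaction. Limma called 0 members for Wnt1 (0.973% of all genes called) and 0 for Nog (1.11% called), with 2 and 1 members at an unadjusted p under 0.05. Tfrc had the smallest p in both, with 1.42 (SE 0.38, adjusted p = 0.0912) for Wnt1 and 1.54 (SE 0.45, adjusted p = 0.172) for Nog. Its other probe sets gave 1.72 and 1.91 for Wnt1 (adjusted p = 0.0566 and 0.0514). Without replicate 3 of K19-Wnt1/C2mE, where Tfrc was 10.46, both passed (adjusted p = 0.00547 for Wnt1 and 0.0217 for Nog). For Hamp2 the interactions were -1.34 (interval -2.73 to 0.05) and -1.09 (interval -2.74 to 0.56).

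The 9 arrays with high Y-linked genes bear on these calls. Without them, 1 wild-type, 1 K19-C2mE and 1 K19-Wnt1 array remain, and a lone array is assumed to vary like the other groups. Hamp2 then differed from wild-type by -3.05 in K19-C2mE (adjusted p = 0.138) and by -5.42 in K19-Wnt1/C2mE (adjusted p = 0.00115). In K19-Nog/C2mE it differed by -5.55 (adjusted p = 0.00173). Hamp differed by -1.05 (adjusted p = 0.565), -1.63 (adjusted p = 0.0534) and -1.79 (adjusted p = 0.0538). Slc11a2 rose by 0.98 in K19-Wnt1/C2mE (adjusted p = 0.0218), and Fth1, Cybrd1 and Heph no longer passed in any comparison with wild-type. When all arrays were kept and the Y-linked level was added to the model, Hamp2 gave -4.22, -5.91 and -5.93 and Hamp -1.55, -1.73 and -1.90, all past the test.

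Around the members, 84 other iron genes in 8 roles were listed, of which 78 were measured. In K19-C2mE against wild-type 17 rose and 16 fell (21.8% and 20.5%), where 14.3% of all genes rose and 12.6% fell. In K19-Wnt1/C2mE 25 rose and 21 fell (32.1% and 26.9%), where 20.5% of all genes rose and 21.7% fell, and in K19-Nog/C2mE 16 rose and 24 fell (20.5% and 30.8%), where 15.6% rose and 16.1% fell. These shares of all genes are the background for each role below, and no test was run on a role. In K19-Wnt1 0 rose and 0 fell, and in K19-Nog 0 rose and 1 fell. The median difference of the 78 genes was 0.01, -0.04 and -0.07 in the 3 genotypes with C2mE, beside -0.02, -0.04 and -0.02 over all genes.

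Of 19 genes that relay BMP and iron signals to hepcidin, 5 fell and 0 rose in K19-C2mE (26.3% lower, beside 12.6% of all genes). In K19-Wnt1/C2mE 7 fell and 4 rose (36.8% and 21.1%, beside 21.7% and 20.5% of all genes), and in K19-Nog/C2mE 9 fell and 1 rose (47.4% and 5.3%, beside 16.1% and 15.6%). The median differences were -0.09, -0.17 and -0.23. Furin is a protease that matures hepcidin and cuts hemojuvelin, a coreceptor for BMP ligands. Its log2 signal was 8.30 to 9.83 in K19-C2mE, 8.49 to 9.79 in K19-Wnt1/C2mE, 7.39 to 8.25 in K19-Nog/C2mE and 11.2 to 11.7 in wild-type. Its differences from wild-type were -2.22 (adjusted p = 1.45e-04), -2.40 (adjusted p = 7.90e-06) and -3.56 (adjusted p = 4.38e-07). Acvr2a, a receptor for activins and BMPs, fell by 0.98, 1.22 and 1.07 (highest adjusted p = 2.48e-06), and Neo1 (neogenin), which binds hemojuvelin, by 0.91, 0.92 and 0.90 (highest adjusted p = 8.83e-05).

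Of 9 genes of the inflammatory input to hepcidin, 4 rose in K19-C2mE, 6 in K19-Wnt1/C2mE and 3 in K19-Nog/C2mE (44.4%, 66.7% and 33.3%, beside 14.3%, 20.5% and 15.6% of all genes), and 0, 0 and 1 fell. The median differences were 0.79, 1.12 and 0.91. Inhbb, the subunit of activin B, rose by 1.30, 1.60 and 1.74 (highest adjusted p = 1.89e-04). Cebpa, a transcription factor that acts on the hepcidin promoter, rose by 1.37, 1.12 and 1.13 (highest adjusted p = 3.12e-04). Socs3, a feedback target of STAT3, rose by 1.72 in K19-Wnt1/C2mE (adjusted p = 0.00241) and gave 1.16 and 0.91 in K19-C2mE and K19-Nog/C2mE (adjusted p = 0.0749 and 0.144). The brightest probe sets of Hamp and Hamp2 fell in the same stomachs, and the part of these inputs in the hepcidin values was not tested.

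Of 8 genes for transferrin, siderophore and other iron uptake, 3, 2 and 1 rose in the genotypes with C2mE (37.5%, 25.0% and 12.5%, beside 14.3%, 20.5% and 15.6% of all genes) and 1, 2 and 1 fell. Ltf (lactoferrin), an iron-binding protein of secretions and neutrophils, had log2 signals of 13.7 to 14.0 in K19-C2mE, 12.6 to 13.9 in K19-Wnt1/C2mE and 7.33 to 13.6 in K19-Nog/C2mE, against 5.79 to 6.85 in wild-type stomachs. It rose by 7.69 in K19-C2mE (SE 1.01, adjusted p = 1.60e-05), by 7.02 in K19-Wnt1/C2mE stomachs (SE 0.90, adjusted p = 5.37e-06) and by 3.50 in K19-Nog/C2mE stomachs (SE 1.01, adjusted p = 0.0132), with a wide spread in K19-Nog/C2mE. Lcn2, which binds bacterial siderophores, rose by 3.84 in K19-C2mE (adjusted p = 0.0264) and gave 1.9995 and 2.17 in the others (adjusted p = 0.154 and 0.190). Of 5 neutrophil genes measured, 2 rose in K19-C2mE, 2 in K19-Wnt1/C2mE and 0 in K19-Nog/C2mE. The log2 of their summed level was 8.64 to 11.04, 8.53 to 12.3 and 7.56 to 10.3, against 7.71 to 7.83 in wild-type stomachs, and their part in the Ltf and Lcn2 values was not tested. Slc39a8, a metal importer, rose by 1.09 in K19-C2mE (adjusted p = 0.0162) and by 1.94 in K19-Wnt1/C2mE (adjusted p = 2.03e-05).

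Among 7 other ferrireductases and ferroxidases, 4 rose and 1 fell in each genotype with C2mE (57.1% and 14.3%, beside 14.3% and 12.6%, 20.5% and 21.7%, and 15.6% and 16.1% of all genes). Steap1, of the family of metalloreductases, had log2 signals of 9.46 to 9.64 in K19-C2mE, 8.82 to 9.46 in K19-Wnt1/C2mE and 9.77 to 10.3 in K19-Nog/C2mE, against 7.94 to 8.20 in wild-type stomachs. It rose by 1.44, 1.14 and 1.87 (highest adjusted p = 5.62e-06). Cp (ceruloplasmin), the plasma ferroxidase, rose by 1.03 in K19-Wnt1/C2mE (adjusted p = 0.0263) and by 1.499 in K19-Nog/C2mE (adjusted p = 0.00671). Steap4 rose by 1.74 in K19-C2mE (adjusted p = 0.0111) and gave 1.06 and 1.22 in the others (adjusted p = 0.0555 and 0.0582).

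Of 9 genes of mitochondrial iron and iron-sulfur clusters, 6 fell in each of the 3 genotypes (66.7%, beside 12.6%, 21.7% and 16.1% of all genes), and 0, 1 and 0 rose. Isca2, which assembles clusters for mitochondrial enzymes, fell by 1.06, 0.90 and 1.19 (highest adjusted p = 3.28e-06). Iscu, the scaffold on which clusters form, fell by 0.65, 0.70 and 0.73 (highest adjusted p = 2.63e-05), and Isca1 by 0.70, 0.58 and 0.71 (highest adjusted p = 1.44e-06). Parietal cells are rich in mitochondria, and the lower mean signal of the 10 parietal cell genes given above stands beside these values. Its part in them was not tested.

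Of 12 genes for heme uptake, export and breakdown, 3, 3 and 4 rose (25.0%, 25.0% and 33.3%, beside 14.3%, 20.5% and 15.6% of all genes) and 1, 1 and 2 fell in K19-C2mE, in K19-Wnt1/C2mE and in K19-Nog/C2mE. Hmox1, the inducible heme oxygenase that frees iron from heme, rose by 1.24 (adjusted p = 0.0101), 0.76 (adjusted p = 0.0498) and 0.93 (adjusted p = 0.0393). Blvrb, a biliverdin reductase, rose by 0.63 in K19-C2mE (adjusted p = 0.00246) and by 0.87 in K19-Nog/C2mE stomachs (adjusted p = 8.97e-05), and Cd163, the macrophage receptor for hemoglobin bound to haptoglobin, fell by 1.02 in K19-Nog/C2mE (adjusted p = 0.0424). Of 7 genes of heme synthesis, 1, 2 and 1 rose and 1, 3 and 2 fell, which in K19-C2mE is 14.3% each way, close to the 14.3% and 12.6% of all genes. In the other genotypes 28.6% and 14.3% rose and 42.9% and 28.6% fell. Alas1, the first enzyme of the pathway outside red cells, rose by 0.79, 0.63 and 0.85 (highest adjusted p = 0.00592), and Cpox fell by 0.79 in K19-Wnt1/C2mE (adjusted p = 6.78e-05) and fell by 0.67 in K19-Nog/C2mE stomachs (adjusted p = 0.00144). Urod, a later enzyme of the pathway, rose by 0.53 in K19-Wnt1/C2mE (adjusted p = 3.68e-04). Of 7 genes for iron regulatory proteins and ferritin handling, 2, 3 and 2 rose (28.6%, 42.9% and 28.6%) and 1, 1 and 2 fell (14.3%, 14.3% and 28.6%). Fbxl5, which senses iron and degrades an iron regulatory protein, rose by 0.49, 0.33 and 0.47 (highest adjusted p = 0.035), and Pcbp1, an iron chaperone for ferritin, by 0.32, 0.45 and 0.38 (highest adjusted p = 0.0183). The related chaperone Pcbp2 fell by 0.39 in K19-C2mE (adjusted p = 0.0229) and by 0.60 in K19-Nog/C2mE stomachs (adjusted p = 7.55e-04), with -0.04 in K19-Wnt1/C2mE (adjusted p = 0.823).

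**Figure D5:**
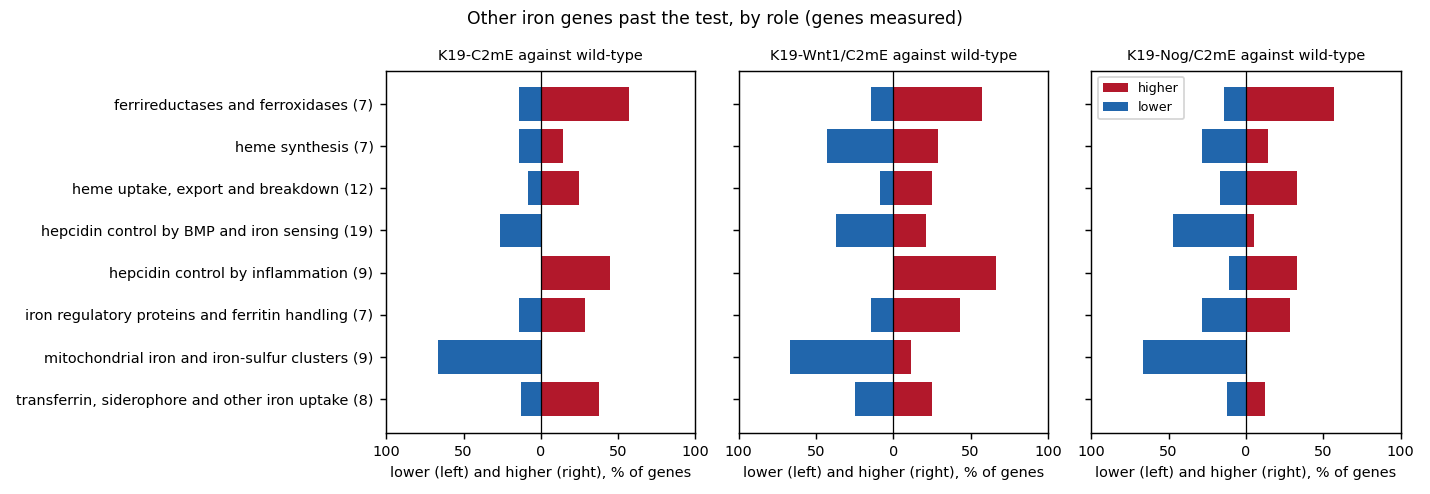
Share of measured genes (x axis, percent) that were higher (right, red) or lower (left, blue) at an adjusted p under 0.05 in each of 8 iron roles (y axis, with the number of genes measured), in K19-C2mE stomachs, K19-Wnt1/C2mE stomachs and K19-Nog/C2mE stomachs against wild-type. In each panel 6 of 9 mitochondrial iron genes were lower and 4 of 7 ferrireductases and ferroxidases were higher.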

How the data were processed

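RNA of 21 glandular stomachs was measured. The authors used RMA (Affymetrix Power Tools, run from Rosetta Resolver) to reduce the probes to probe set values, deposited as linear intensities. A second deposited set, used as an alternative, holds log10 ratios, each found here to be an intensity over the wild-type mean, limited to 2 in either direction. RMA can shrink differences at low signal, and no detection calls were used.

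Here log2 of the intensities was fitted in limma 3.58.1 (R 4.3.3, data.table version 1.17.8, jsonlite 2.0.0) with 1 coefficient per genotype over 21 arrays, Benjamini-Hochberg over 45037 probe sets and no filter, in 12 comparisons. Probe sets were named from the array's annotation, with symbols updated through gene identifiers: 34945 have 1 gene, 932 several and 9160 none. The methods' t-test, the replicate block and other settings were alternatives. The script was tested on simulated data. Figures and promoter windows used Python 3.11.15, matplotlib 3.10.9, numpy 2.4.6, pandas 2.3.3 and Biopython 1.88.

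The members and gene lists were chosen with earlier results of these data known. All members are named; of the 84 other iron genes, up to 3 per role with the largest mean absolute difference over the C2mE genotypes against wild-type, among those called at least once; for likeness, the 5 genes with the highest correlation. No pairing follows from the replicate numbers. Array medians lie between 65.96 and 68.76, arrays of a genotype correlate at 0.983 to 0.996, and the number of mice limits precision. Each array is 1 mouse, so p-values measure the spread between these mice.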

Additional observations from a re-analysis of the deposited data

Results flagged for a closer look

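In 16 groups of 4 or more arrays tested, 4 values lay far from the others of their genotype, where chance alone marks about 1 in 20 groups. Hamp was 7.24 in K19-Wnt1/C2mE replicate 3, against 6.01 in the nearest of the other 4 arrays. Hamp was 8.15 in K19-Wnt1 replicate 5, against 7.76 in the nearest. In K19-Wnt1 replicate 2, Heph was 3.23 against 3.52 in the nearest array and Slc11a2 was 7.50 against 7.41. All values are log2 signals.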

How the results depend on the processing

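Outside leaving out arrays, 1054 of 1124 values kept direction and side of the threshold, 49 fell short of it, 21 passed it newly and 0 called values turned. For the number of members called, most settings gave counts within 1.5 times the reported one. The exceptions follow. The methods' t-test after adjustment called 0 members in K19-C2mE against wild-type (4 reported), 0 in K19-Nog/C2mE against K19-Nog (4) and 0 in K19-Wnt1/C2mE and in K19-Nog/C2mE against K19-C2mE (2 and 1). Without the arrays with high Y-linked genes the count was 0 in K19-C2mE, 2 in K19-Wnt1/C2mE and 1 in K19-Nog/C2mE against wild-type, 1 in K19-Wnt1/C2mE against K19-Wnt1, and 0 in both comparisons with K19-C2mE. Fewer arrays remain there. K19-Wnt1/C2mE against K19-C2mE gave 0 when only the genotypes compared were fitted, 1 with a variance trend and robust fitting, and 0 with the squamous median as covariate. K19-Nog/C2mE against K19-C2mE gave 0 with the mean of the probe sets, 0 with the Y-linked covariate and 0 with the squamous covariate. K19-Wnt1/C2mE against K19-Nog/C2mE (0 reported) gave 1 with dim probe sets left out, 1 with the mean of the probe sets and 1 with the squamous covariate. The interaction of Wnt1 with C2mE gave 1 with the mean of the probe sets, and that of Nog gave 1 when only the genotypes compared were fitted. The cause was not tested.

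Nothing in the labels pairs mice by replicate number, and 38 same-numbered pairs of arrays deviated together at a mean r of 0.0035 (-0.348 to 0.183). The 142 other pairs gave -0.0008 (-0.358 to 0.307), and 9 of the 38 and 25 of the 142 were over 0.1. Such means over few arrays per genotype cannot exclude a pairing. With the replicate block the count was 1 in K19-Wnt1/C2mE against K19-C2mE (2 without it), where Tfrc gave 0.83 (adjusted p = 0.0725), and within 1.5 times the reported count elsewhere.

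Leaving out 1 array at a time gave 3 to 6 members in K19-C2mE, 6 throughout in K19-Wnt1/C2mE and 3 to 4 in K19-Nog/C2mE against wild-type, 6 to 7 and 3 to 5 in the double against the single transgenics with Wnt1 and Nog, 0 to 3 and 0 to 2 in K19-Wnt1/C2mE and K19-Nog/C2mE against K19-C2mE, 0 to 4 between the double transgenics, and 0 to 1 for each interaction. Hamp and Hamp2 passed against wild-type in each of the 3 C2mE genotypes without any 1 array (Hamp2 -5.91 to -3.45, Hamp -1.88 to -1.29). Without K19-C2mE replicate 3, Cybrd1 and Tfrc lost their calls in K19-Wnt1/C2mE against K19-C2mE (2.73, adjusted p = 0.0795, and 0.85, adjusted p = 0.182), as they did without replicate 1. Tfrc in that comparison lost its call without any of 9 single arrays, and Slc11a2 in K19-C2mE against wild-type without any of 3. With the Y-linked covariate Hamp2 passed in K19-Wnt1/C2mE against K19-C2mE (-1.70, adjusted p = 0.0485), and with the replicate block Tfrc passed in K19-C2mE against wild-type (adjusted p = 0.0264). The t-test was not run for the interactions, and Heph has no value with dim probe sets left out.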
